A study of Mus musculus with 6 samples.

Results

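Interferon-stimulated genes, a set of 44 mouse genes chosen by name for their known induction by interferons, were followed through ovulation in cumulus-oocyte complexes. The set was drawn up with the values of these same arrays known, over all 3 time points and the separate 16 h arrays, so the values are a description of the genes and are not independent evidence of their direction. A gene was read through the probe sets whose only platform gene symbol was its own. Of the 44 genes, 42 had such a probe set (71 probe sets in all), among 18193 genes of the array with one. The only probe set for Isg15 also carries the symbol Gm9706, so no value is given for it, and Ifi44 was not analysed here.

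The complexes consist of an oocyte and the cumulus, the layers of granulosa cells that surround and ovulate with it. Wild-type immature female mice (the age is not given) had been primed for 48 h with equine chorionic gonadotropin (eCG), which makes follicles grow, and all 3 groups share that priming. Complexes were studied without human chorionic gonadotropin (hCG, the ovulatory signal), at 8 h after hCG and at 16 h after hCG, and total RNA of each pool was labelled with biotin and hybridised to 1 array, 2 arrays per group. Complexes without hCG were punctured from ovaries, and both later groups are described as oviductal. The place of collection and the hormone therefore cannot be told apart between the first group and the later groups, and the 8 h site is in doubt because ovulation is usually not complete by then. Complexes without hCG are labelled as expanded. Nothing in the labels says that the 2 pools of a group came from separate animals, so each p-value reflects no more than how much these samples vary, which may be technical.

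Interferons are secreted proteins that bind receptors on the cell surface and act through Janus kinases. Type I interferons act on promoters through the interferon-stimulated response element (ISRE), which a complex that includes Stat2 and Irf9 binds, while interferon gamma acts mainly through the gamma-activated site (GAS). The induced genes encode sensors of foreign nucleic acid, inhibitors of viral replication, GTPases, parts of the antigen-processing machinery and regulators that feed back on the pathway. They are best known from infected tissue, and also from the uterus of ruminants in early pregnancy.

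All values are log2 intensities as deposited, in the order replicate 1 then replicate 2. Changes are differences of group means ± SE of a limma fit to the 6 arrays, and "called" means an adjusted p under 0.05 (Benjamini-Hochberg over 27022 tested probe sets). "Rose" and "fell" are used only of called changes. Where several probe sets name 1 gene, the brightest on average stands for it. Levels of different genes on such an array cannot be compared, because probes differ in brightness, and the signal over background is unknown. Over the probe sets of the array, which are not independent of each other, Pearson's r between the arrays of a group lay between 0.991 and 0.996. Array medians spanned 0.125.

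Of the 38 genes tested, 28 were not called between no hCG and 8 h, and 29, not all of them the same genes, rose between 8 h and 16 h. From 8 h to 16 h, Oasl2, an oligoadenylate synthetase-like protein, rose 11.3-fold, Trim34a, a tripartite-motif protein, 9.01-fold, Rtp4, a chaperone of membrane receptors, 8.65-fold, and Ifih1, a sensor of double-stranded RNA, 5.90-fold. Other courses were of several kinds. By 8 h Psmb9, Bst2, Irf1, Lgals3bp, Ifi47, Oasl1, Tap1 and Irgm1 fell and Usp18 and Ifi35 rose, while Stat2, Zbp1, Ifit3, Oas2, Mx2, Samhd1, Adar and Cxcl10 were not called in any comparison on their brightest probe set. Of 42 genes, 38 were bright enough to be tested. Ifit1, Ifit2, Oas3 and Mx1 averaged less than 5.62, the 40th percentile of all probe sets, and were not tested. Of the 38, 3 had a group mean under that limit and passed through their other groups (Usp18 and Ifit3 without hCG, Eif2ak2 at 8 h).

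**Figure D1:**
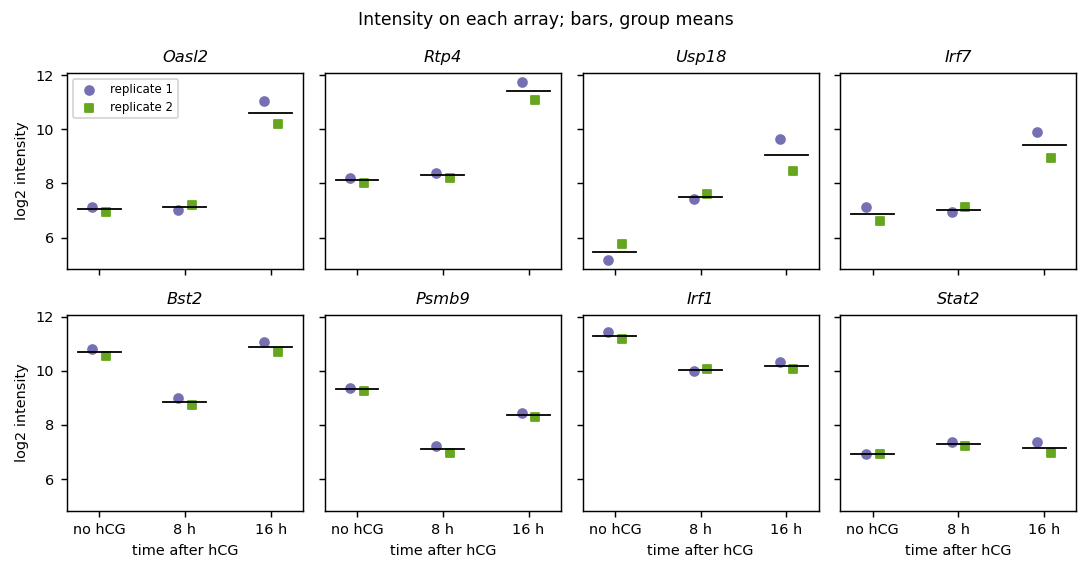
Log2 intensity (vertical axis) of selected interferon-stimulated genes on each of the 6 arrays, without hCG and at 8 h and 16 h after it (horizontal axis). Points are arrays and bars are group means. The panels share a vertical range, but probes differ in brightness, so heights cannot be compared between genes.

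From no hCG to 8 h, 2 of the 38 tested genes rose and 8 fell, where 16.9% of the 13559 tested genes of the array rose and 20.5% fell. The median change of the 38 was -0.05, with a range from -2.21 (Psmb9) to 2.04 (Usp18), beside a median of -0.02 over all tested genes. From 8 h to 16 h, 29 rose and 0 fell (0 were lower at an unadjusted p under 0.05 in limma), where 11.8% and 9.12% of all tested genes did. The median change was 1.52, with a range from -0.14 (Stat2) to 3.49 (Oasl2), and over all tested genes it was 0.01. Both 16 h arrays lay above both 8 h arrays for 33 of the 38, as they did for 33.7% of all tested genes. From no hCG to 16 h, 24 rose and 2 fell, where 20.8% rose and 20.8% fell among all tested genes. The median change was 1.22, against -0.02 over all tested genes. The 3 comparisons share arrays, and each of them entered the choice of the genes, so nothing is read from these counts beyond the description. Leaving out the first 16 h array left 25 of the 38 higher over the later interval, and leaving out the second left 29. Such a fit has 1 array in that group, which is assumed to vary like the arrays of the other groups, here and wherever an array is left out. In a pool of cells, fewer cells of a type and less RNA per cell cannot be told apart.

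**Figure D2:**
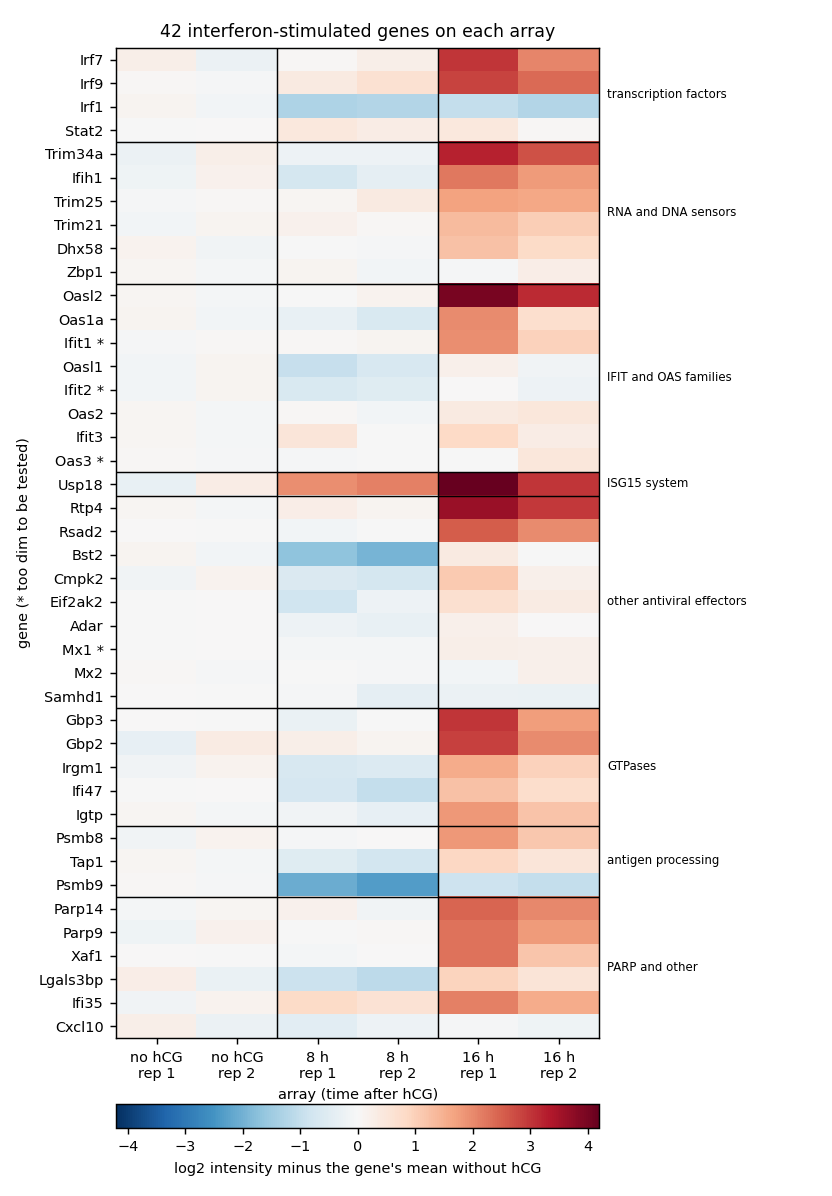
Heat map of the 42 genes (rows, by role) on the 6 arrays (columns), in log2 units relative to each gene's own mean without hCG. An asterisk marks the 4 genes too dim to be tested. The colour change lies mainly between the 8 h and the 16 h columns, and it is deeper in the first than in the second 16 h column for most rows.

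The promoters of 5 of the genes are shown because their behaviour differs while each holds the ISRE core. For Gbp3, which has another RefSeq promoter without the core, the promoter that holds it was taken. Gbp3 and Rsad2 rose late, Oas1a had the widest gap between the 16 h arrays of any of the 42 genes, Bst2 fell and then rose, and Cxcl10 was not called over any interval. The windows are the 250 bases before the start of the RefSeq gene in build GRCm38.p6, read 5′ to 3′ along the gene's own strand. They lie at chr3:142559794-142560043 on the plus strand for Gbp3 and, on the minus strand, at chr12:26456453-26456702 for Rsad2, chr5:120907526-120907775 for Oas1a, chr8:71537473-71537722 for Bst2 and chr5:92348890-92349139 for Cxcl10. Capitals mark every match on either strand to the ISRE core, which is GAAA, any 2 bases, then GAAA, and reads TTTC, any 2 bases, then TTTC on the opposite strand.
Gbp3: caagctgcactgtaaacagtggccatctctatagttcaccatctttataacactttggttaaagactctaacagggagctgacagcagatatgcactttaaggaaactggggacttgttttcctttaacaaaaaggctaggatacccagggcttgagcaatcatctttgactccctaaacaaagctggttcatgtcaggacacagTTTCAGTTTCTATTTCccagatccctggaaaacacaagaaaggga
Rsad2: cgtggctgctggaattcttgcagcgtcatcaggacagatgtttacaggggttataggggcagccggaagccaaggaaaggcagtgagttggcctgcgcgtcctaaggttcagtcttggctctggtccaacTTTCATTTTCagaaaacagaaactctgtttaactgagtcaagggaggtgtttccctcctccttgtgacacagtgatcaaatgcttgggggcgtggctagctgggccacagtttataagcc
Oas1a: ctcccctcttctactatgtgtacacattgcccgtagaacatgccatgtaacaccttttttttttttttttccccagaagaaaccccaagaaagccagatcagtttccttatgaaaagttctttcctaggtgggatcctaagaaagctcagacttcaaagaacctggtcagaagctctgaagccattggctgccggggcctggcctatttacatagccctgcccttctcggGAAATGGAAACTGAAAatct
Bst2: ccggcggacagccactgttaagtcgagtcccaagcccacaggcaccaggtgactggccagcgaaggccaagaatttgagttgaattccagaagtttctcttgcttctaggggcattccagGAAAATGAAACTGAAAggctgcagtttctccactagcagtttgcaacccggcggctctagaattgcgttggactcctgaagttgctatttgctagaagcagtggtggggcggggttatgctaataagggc
Cxcl10: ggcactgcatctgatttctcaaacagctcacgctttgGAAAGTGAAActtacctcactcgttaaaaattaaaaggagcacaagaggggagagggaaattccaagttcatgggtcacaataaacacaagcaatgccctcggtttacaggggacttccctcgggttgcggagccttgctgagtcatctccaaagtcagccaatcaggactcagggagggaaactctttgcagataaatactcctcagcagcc
Gbp3, Oas1a and Bst2 each hold a pair of cores that overlap, running from position -45 to -30 relative to the start in Gbp3, from -20 to -5 in Oas1a and from -130 to -115 in Bst2. Rsad2 holds 1 core, from -120 to -111, and Cxcl10 holds 1 core, from -213 to -204. In Bst2 a match to the GAS core, from -136 to -128, overlaps the first ISRE core.

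RefSeq promoters (250 bases before to 50 after the start) were matched for 33 of the 42 genes. Usp18, Rtp4, Mx1, Dhx58, Parp9, Oas2, Zbp1, Parp14 and Mx2 had none in the table. The ISRE core was found in 16 of the 33 (48.5%), and in 3.99% of the 27025 genes with a promoter of the same length. The GAS core, which is TTC, any 3 bases, then GAA and reads the same on both strands, was found in 10 of the 33 (30.3%) and in 9.55% of all genes. The genes were chosen for known induction by interferons, which act through such elements, so this difference describes the choice of the genes. Within the set, genes with and without the ISRE core had overlapping changes. Of genes with a promoter in the table, the ISRE core was in 11 of the 24 that rose from 8 h to 16 h (45.8%) and in 3 of the 6 tested but not called (50%). The median later change was 1.86 for the 14 tested genes with the core (from -0.14 in Stat2 to 3.17 in Trim34a) and 1.38 for the 16 without it (from -0.06 in Samhd1 to 3.49 in Oasl2). A match is a run of letters and was not tested as a binding site. The windows of Psmb9 and Tap1 share 275 bases on chromosome 17, since these genes are divergently placed neighbours.

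Of the 4 transcription factors, Irf7 and Irf9 rose from 8 h to 16 h, Irf1 fell by 8 h and Stat2 was not called. Irf7, which amplifies interferon production, read 7.15 and 6.63 without hCG, 6.93 and 7.12 at 8 h, and 9.90 and 8.94 at 16 h. The groups before 16 h overlapped, and both 16 h arrays stood above them, with a rise of 2.39 ± 0.29 from 8 h (5.26-fold). Irf9, the DNA-binding subunit of the type I complex, read 7.46 and 7.33, then 7.78 and 8.03, then 10.24 and 9.77, a rise of 2.10 ± 0.19 from 8 h. Its partner Stat2 read 6.93 and 6.93, then 7.38 and 7.23, then 7.36 and 6.97, so that the 16 h arrays lay within the range of the earlier ones and no interval was called. Irf1, a factor induced mainly by interferon gamma, read 11.41 and 11.18, then 9.998 and 10.06, then 10.31 and 10.06. It fell by 1.27 (SE 0.17) at 8 h and remained lower at 16 h, with a change of -1.11 ± 0.17 from no hCG and 0.16 ± 0.17 (not called) over the later interval.

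Of the 6 genes for nucleic acid sensors and their ubiquitin ligases, 5 rose from 8 h to 16 h (11.8% of all tested genes). From no hCG to 8 h, 0 of the 6 were called (1 at an unadjusted limma p under 0.05). Among all tested genes, 16.9% rose and 20.5% fell over that earlier interval. Ifih1 read 8.24 and 8.60 without hCG, 7.68 and 8.03 at 8 h, and 10.63 and 10.20 at 16 h. Its 8 h arrays lay below both arrays without hCG by a change of -0.56 ± 0.21 that was not called, and it then rose by 2.56 ± 0.21. Leaving out the first array without hCG made the early change -0.74 and called. Dhx58, a regulator of that sensor, read 5.90 and 5.63, then 5.74 and 5.73, then 7.0 and 6.57, a rise of 1.05 ± 0.19 on a dim probe set. Trim34a read 6.49 and 6.99, then 6.51 and 6.51, then 9.97 and 9.40, the highest later rise of the 38 after that of Oasl2 (3.17 ± 0.23), though its neighbour Trim34b is nearly identical and may share its signal. Trim25, the ubiquitin ligase that activates the sensor encoded by Ddx58, read 11.17 and 11.27, then 11.31 and 11.60, then 12.92 and 12.83, with 16 h arrays only 0.09 apart and a rise of 1.42 ± 0.16. Its 3 tested probe sets differed: a second rose by 1.45, and the third changed by 0.07 over this interval (not called) after a rise of 0.93 at 8 h. Trim21, an antibody receptor in the cytosol, read 8.22 and 8.47, then 8.53 and 8.41, then 9.66 and 9.39, a rise of 1.06 ± 0.17 from earlier groups that overlapped. Zbp1, a sensor of unusual nucleic acid structures, stayed between 5.91 and 6.29 on all 6 arrays.

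The IFIT and oligoadenylate synthetase families, whose members include proteins that bind viral RNA, were uneven. Oasl2 read 7.14 and 6.96, then 7.03 and 7.21, then 11.05 and 10.18, so the earlier groups overlapped and the 16 h arrays, 0.87 apart, lay 3.49 ± 0.25 above 8 h. Its immediate neighbour on chromosome 5, Oasl1, followed another course: 6.64 and 6.85, then 5.78 and 6.08, then 6.96 and 6.59. It fell by 0.82 (SE 0.19), rose by 0.85 ± 0.19 and ended 0.03 from its start. Without the first 8 h array its early change was -0.67 and its later one 0.70, neither of them called, and without the first 16 h array the later one was 0.67 and not called. Oas1a read 8.15 and 7.90, then 7.70 and 7.38, then 10.01 and 8.74. Both 16 h arrays exceeded all others, with a rise of 1.84 ± 0.34 from 8 h (3.57-fold), but they differed by 1.28 from each other. Without the first 16 h array Oas1a stood 0.71 over no hCG, no longer called. The probe sets of Oas1a and its near-identical copy Oas1g may share signal. Oas2 read 7.12 and 6.93, then 7.09 and 6.92, then 7.42 and 7.50. Its change of 0.46 ± 0.16 was not called. It became called at 0.46 without either of the arrays without hCG and with only the compared groups fitted. Averaging the probe sets of each gene also made it called, though Oas2 has 1 probe set and its change stayed 0.46. Its net change from no hCG, 0.43 ± 0.16, was not called either. It was called at 0.43 with the 60th percentile filter, averaged probe sets of each gene and the replicate block. It was also called at 0.45 after quantile normalization, at 0.49 after centring each array and at 0.52 without the first array without hCG.

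The IFIT genes were dim. Ifit1 read 4.55 and 4.67, then 4.65 and 4.72, then 6.58 and 5.56, so both 16 h arrays were the highest and 1.02 apart, but the gene was not tested. Ifit2 lay between 5.09 and 5.86 on the 6 arrays with overlapping groups at no hCG and 16 h. Ifit3, whose copy Ifit3b may share signal, read 5.69 and 5.54, then 6.11 and 5.61, then 6.44 and 5.93, a change from 8 h of 0.33 ± 0.22 that was not called. From no hCG to 16 h it changed by 0.57, which was not called, but was called with the replicate number as a block (0.57) and without the second 16 h array (0.82). Oas3, which lies beside Oas2, read between 4.85 and 5.37.

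Usp18, the protease that removes Isg15 from proteins and damps the type I receptor, rose over both intervals, as Ifi35 did among the 38 tested genes and no other. It read 5.17 and 5.77 without hCG, 7.41 and 7.60 at 8 h, and 9.66 and 8.46 at 16 h, so no groups overlapped. The early rise was 2.04 ± 0.34 (4.10-fold) and the later 1.55 ± 0.34 (2.94-fold), and the whole change 3.59 ± 0.34. The 16 h arrays were 1.19 apart. Without the first 16 h array the later change was 0.96, and without the first 8 h array 1.46, and neither was called.

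Of the other antiviral effectors, 8 were tested and 5 rose from 8 h to 16 h, where 11.8% of all tested genes did. Rtp4 read 8.20 and 8.03, then 8.39 and 8.22, then 11.74 and 11.09, a rise of 3.11 ± 0.22 after a change of 0.18 that was not called. Rsad2, which encodes viperin, an enzyme that makes a chain-terminating nucleotide, read 6.88 and 6.83, then 6.75 and 6.84, then 9.38 and 8.85, a rise of 2.32 ± 0.19. Its neighbour Cmpk2, a nucleotide kinase with no protein-coding gene between them, read 7.06 and 7.33, then 6.58 and 6.45, then 8.28 and 7.42. Cmpk2 had an early change of -0.68 ± 0.25 that was not called and a later rise of 1.34 ± 0.25. Fits without either of the 16 h arrays called the early change, at -0.68, and without the second 16 h array Cmpk2 stood 1.09 over no hCG and was called.

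Bst2, the tether that holds budding virus on the cell, dipped and recovered. It read 10.81 and 10.56 without hCG, 9.0 and 8.72 at 8 h, and 11.07 and 10.67 at 16 h. The 8 h arrays were the lowest and the outer groups overlapped, with a fall of 1.82 (SE 0.19), a rise of 2.01 ± 0.19 (4.04-fold) and a net change of 0.19 ± 0.19 that was not called. Eif2ak2, the kinase that halts translation on double-stranded RNA, had its lowest arrays at 8 h too on its brightest probe set. It read 6.02 and 6.05, then 5.20 and 5.82, then 6.70 and 6.39. Its early change of -0.52 was not called (without the second 8 h array it was -0.83 and called), and its rise of 1.03 ± 0.21 was not called without the first 8 h array (0.73) or the first 16 h array (0.88). A second tested Eif2ak2 probe set had no dip. It changed by 0.35 at 8 h (not called), rose by 1.40 and ended 1.75 over no hCG, which was called. With the mean of its probe sets the net change of Eif2ak2 was 0.91 and called. Samhd1, which degrades nucleotides, stayed between 11.57 and 11.99, but 2 less bright probe sets of the gene were called. The one rose by 0.58 over the later interval, and the other fell by 0.59 at 8 h, rose by 0.57 and ended with a net change of -0.02. Adar, the RNA-editing deaminase, changed by 0.37 ± 0.15 (not called) on its brightest probe set, with no comparison called. Another Adar probe set fell by 1.65 at 8 h, rose by 1.26 and had a net change of -0.39 (not called), and the third rose by 1.38 over the later interval. With the mean of its probe sets Adar fell by 0.76 and then rose by 1.0. For no gene of the set were different probe sets called in opposite directions over 1 interval. Of the 2 dynamin-like Mx genes, Mx2 lay between 6.02 and 6.36, and Mx1 was untested, with 4.13 and 4.15, then 4.04 and 4.05, then 4.39 and 4.34.

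All 5 tested GTPases, of families that act against intracellular pathogens, rose from 8 h to 16 h, where 11.8% of all tested genes did. These 5 were also higher at 16 h than without hCG, as were 20.8% of all tested genes. Gbp3 read 5.82 and 5.77, then 5.51 and 5.77, then 8.81 and 7.54, a rise of 2.53 ± 0.33 (5.79-fold) with the 16 h arrays 1.26 apart. Gbp2, separated from it by Gbp2b, read 5.96 and 6.67, then 6.57 and 6.45, then 9.19 and 8.31, a rise of 2.24 ± 0.30. A second Gbp2 probe set also rose at 8 h, by 0.80, and both genes have close paralogs that may share signal. Of the 3 immunity-related GTPases, Irgm1 and Ifi47 fell by 8 h before they rose. Irgm1 read 8.23 and 8.50, then 7.68 and 7.79, then 9.92 and 9.32, with a fall of 0.63 (SE 0.21) and a rise of 1.89 ± 0.21. Its fall was not called without the second array without hCG (-0.49), the first 8 h array (-0.57) or the second (-0.68), nor after centring each array on its median (-0.59). Ifi47 read 7.41 and 7.46, then 6.72 and 6.43, then 8.65 and 8.18, a fall of 0.86 (SE 0.19, but -0.71 and not called without the second 8 h array) and a rise of 1.84 ± 0.19. Igtp read 8.81 and 8.66, then 8.58 and 8.38, then 10.56 and 9.92, a rise of 1.76 ± 0.21 with no called early change.

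The 3 antigen-processing genes lie together on chromosome 17 and all rose from 8 h to 16 h (11.8% of all tested genes). Psmb9 and Tap1 had fallen by 8 h (20.5% of all tested genes), while Psmb8 had no called early change. Psmb9, a subunit of the immunoproteasome, read 9.37 and 9.25 without hCG, 7.23 and 6.97 at 8 h, and 8.45 and 8.30 at 16 h. It had the deepest early fall of the 38 (-2.21 ± 0.16, 4.63-fold) and a rise of 1.27 ± 0.16 that left it 0.94 under its start. Psmb8, another immunoproteasome subunit, read 7.98 and 8.26, then 8.08 and 8.14, then 9.95 and 9.26, so the earlier groups overlapped and the rise was 1.49 ± 0.22. Tap1, a chain of the peptide transporter, lies between them and read 8.58 and 8.45, then 8.00 and 7.75, then 9.37 and 9.02. Tap1 fell by 0.64 (SE 0.18) and rose by 1.32 ± 0.18. Its fall was not called without the first array without hCG (-0.58) or the second 8 h array (-0.52), and without the first 16 h array its net change of 0.50 was not called.

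Among the remaining induced proteins, Parp9 and Parp14, ADP-ribosyltransferase family members that flank Dtx3l on chromosome 16, had nearly equal courses. Parp14 read 6.54 and 6.68, then 6.78 and 6.46, then 9.07 and 8.62, a rise of 2.22 ± 0.20. Parp9 read 7.93 and 8.30, then 8.10 and 8.16, then 10.40 and 9.90, a rise of 2.02 ± 0.21. For both, the earlier groups overlapped and the change by 8 h was within 0.02 of 0. Xaf1, a proapoptotic zinc-finger protein, read 6.78 and 6.73, then 6.66 and 6.77, then 9.03 and 7.92, a rise of 1.76 ± 0.30 with the 16 h arrays 1.11 apart. Ifi35 read 9.45 and 9.75, then 10.41 and 10.20, then 11.72 and 11.14, rising by 0.71 ± 0.21 and then 1.12 ± 0.21. The early rise of Ifi35 was not called without the first array without hCG (0.56), the first 8 h array (0.60) or the second (0.82), nor with the mean of its probe sets (0.59) or without probe sets open to cross-hybridisation (0.48), and the later one was 0.84 and not called without the first 16 h array. Lgals3bp, a secreted glycoprotein, read 7.88 and 7.34, then 6.72 and 6.52, then 8.55 and 8.16, a fall of 0.99 (SE 0.22) and a rise of 1.74 ± 0.22. Its net rise of 0.75 was not called without the second array without hCG (0.47) or the first 16 h array (0.55). Cxcl10, a chemokine for T cells, read 6.58 and 6.11, then 5.90 and 6.13, then 6.30 and 6.18, with the first group overlapping both others. Its early change was called at -0.56 without the second array without hCG.

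**Figure D3:**
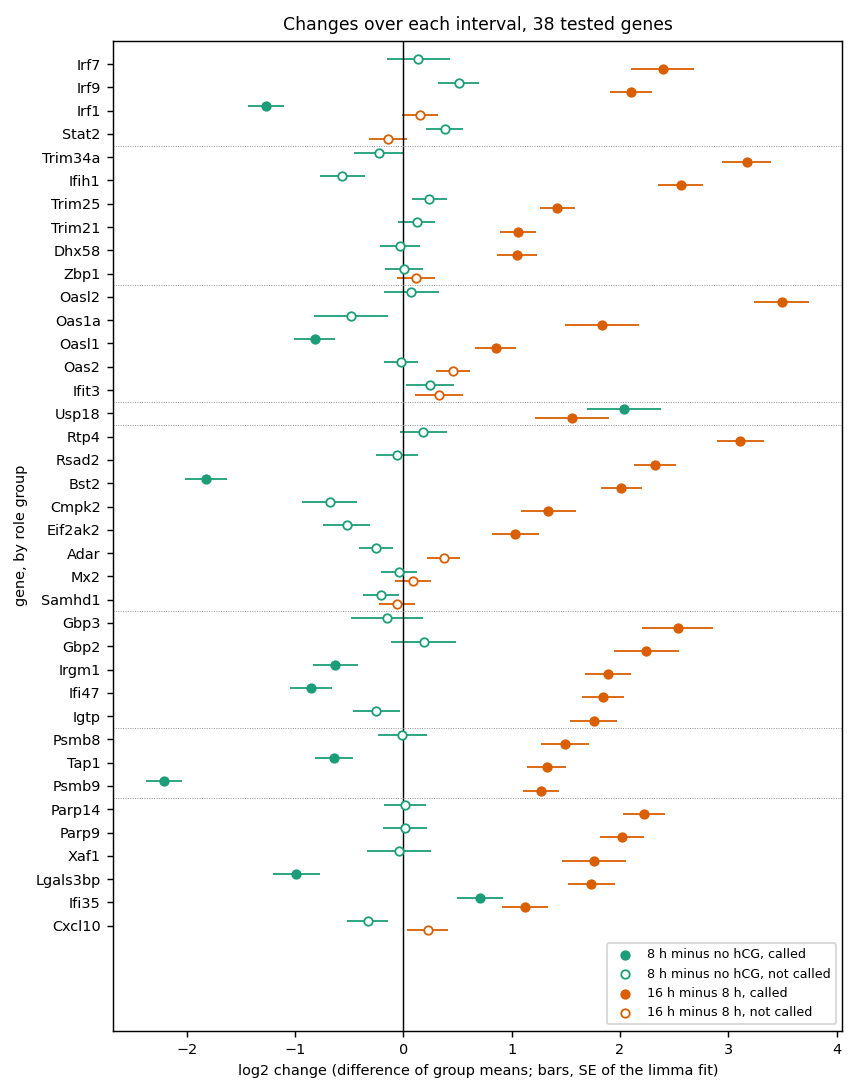
Log2 change of each of the 38 tested genes (rows, by role) from no hCG to 8 h and from 8 h to 16 h (horizontal axis), with bars for the SE of the limma fit over 6 arrays. Changes over the earlier interval lie on both sides of 0, from -2.21 for Psmb9 to 2.04 for Usp18, and those over the later interval reach 3.49 for Oasl2.

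The 2 arrays at 16 h differed over these genes. The first read higher than the second for 35 of the 38 tested genes, where it did so for 57.6% of all tested genes, and the exceptions were Zbp1, Mx2 and Oas2. The median difference was 0.46 with a range from -0.34 (Mx2) to 1.28 (Oas1a), against 0.04 over all tested genes. A gap of at least 0.5 was found in 17 of the 38, and in 3.94% of all tested genes, and a gap of at least 1 in 4 of the 38 (Oas1a, Gbp3, Usp18 and Xaf1), and in 0.103% of all tested genes. In the other groups replicate 1 was higher for 21 of the 38 without hCG (background 46.2%, median difference 0.05) and for 22 at 8 h (background 47.7%, median difference 0.06). The separate 16 h arrays were also known when the genes were chosen, so these counts describe the set. Taken alone, the first 16 h array stood at least 2-fold over the 8 h mean for 29 of the 38 (5.66% of all tested genes) with a median difference of 1.88, and the second for 22 (4.63%) with a median of 1.20. The median of the set lay over the 8 h mean in each of the 2 arrays, by more in the first.

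**Figure D4:**
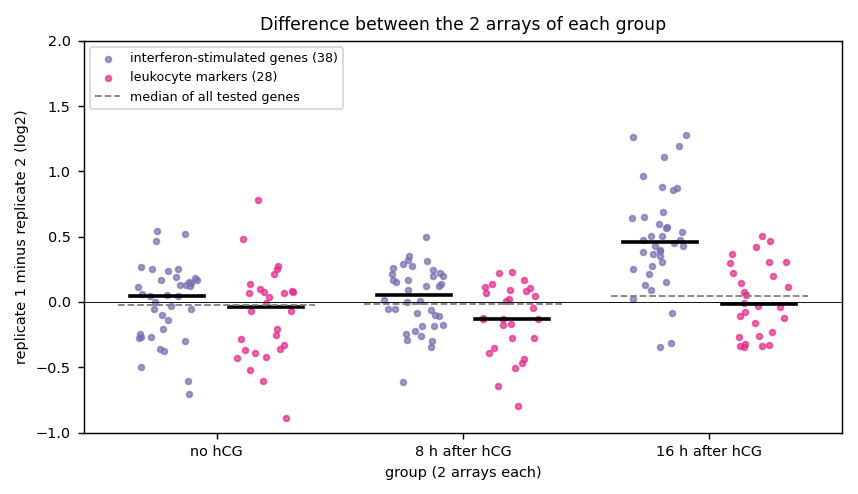
Difference of replicate 1 from replicate 2 in log2 units (vertical axis) within each group of 2 arrays (horizontal axis), for the interferon-stimulated genes and for leukocyte marker genes. At 16 h the interferon-stimulated genes have a median difference of 0.46 and the leukocyte markers one of -0.02.

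Other interferon pathway genes, from 2 lists drawn up by known function with earlier results of these arrays known, gave the surroundings of the set. Of 29 tested genes for ligands, receptors, sensors and signalling (36 of 49 had a probe set), 5 rose and 1 fell from 8 h to 16 h, where 11.8% of all tested genes rose and 9.12% fell. Of 3 tested ligands, 0 were called in any comparison (0 at an unadjusted limma p under 0.05). Ifnb1, interferon beta, read 6.07 and 5.75, then 5.76 and 5.86, then 5.66 and 5.98, with overlapping groups. Ifna1 lay between 6.44 and 6.95, Ifna9 between 5.82 and 6.31, and Ifna2, Ifna4, Ifna5, Ifna11, Ifnab, Ifng and the receptor gene Ifnlr1 were too dim to be tested. Ifnb1 and Ifna9 lay little above the limit of 5.62, and the Ifna1 probe set is of a kind prone to cross-hybridisation. Unchanged ligand transcripts therefore cannot be read from these values. Among receptors and kinases, Ifnar2, a chain of the type I receptor, rose by 0.83 ± 0.16, Il10rb by 1.5 and the kinase Tyk2 by 0.79 ± 0.15, while the kinase Jak1 fell by 1.33 (SE 0.16), from 12.10 and 12.01 to 10.62 and 10.83. Ddx58, the RNA sensor RIG-I, read 8.02 and 8.16, then 7.22 and 7.70, then 10.16 and 9.49, a rise of 2.36 ± 0.24 with the higher value again in the first 16 h array. The factor Irf8 rose by 0.71 ± 0.18. Without the second 8 h array, 2 of this list rose over the later interval. From no hCG to 8 h, 6 rose (3 without the first 8 h array) and 3 fell, where 16.9% of all tested genes rose and 20.5% fell. Socs3, a feedback inhibitor, fell by 1.17.

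Of 52 tested genes of the second list, other genes known to be induced by interferon (69 of 87 had a probe set, 17 of them too dim), 30 rose and 1 fell from 8 h to 16 h, with a median of 0.82, where 11.8% and 9.12% of all tested genes did. Ifitm3, a membrane protein that blocks viral entry, read 8.46 and 8.13, then 8.39 and 7.99, then 11.00 and 10.08, a rise of 2.35 ± 0.28. Irgm2 rose by 2.32 ± 0.22, Slfn2 by 2.18, Tapbp by 1.98 and Dtx3l, the neighbour of Parp9 and Parp14, by 2.04 ± 0.21. A fall deeper than that of Bst2 was seen in Slfn4, which read 11.33 and 11.07, then 6.70 and 6.76, then 9.48 and 9.2. It fell by 4.47 (SE 0.17) and rose by 2.61 ± 0.17, but unlike Bst2 its 16 h arrays stayed below those without hCG. Parp12 fell by 1.98 (SE 0.15), rose by 1.80 ± 0.15 and ended 0.17 under its start, a net change not called. Oas1c, a relative of Oas1a, went the other way, from 11.82 and 11.45 through 9.33 and 8.86 to 7.28 and 7.10, a fall at each step. From no hCG to 8 h, 5 rose and 15 fell, where 16.9% and 20.5% of all tested genes did. Leaving out the first 8 h array made the 5 into 3, leaving out the second made them 2, and dropping probe sets that can cross-hybridise made them 1. The first 16 h array was the higher for 40 of the 52, with a median difference of 0.24, and the gap reached 0.5 in 7 of them and in 1 of the first list.

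Markers of other cell types moved over the same interval, in both directions. Of 41 leukocyte marker genes, 37 had a probe set and 28 were tested. Of the 28, 21 rose from 8 h to 16 h and 0 fell (0 lower at an unadjusted limma p under 0.05). Their median change was 1.53. Among all tested genes, 11.8% rose and 9.12% fell. The pan-leukocyte gene Ptprc read 4.95 and 5.33, then 4.90 and 5.55, then 7.64 and 7.98, the macrophage gene Lyz2 8.03 and 8.92, then 8.26 and 8.42, then 11.52 and 11.79, and C1qc rose by 2.42 ± 0.16. By list, 6 of 7 pan-leukocyte, 9 of 9 macrophage, 1 of 1 neutrophil and 4 of 7 dendritic markers rose. Of T and NK markers 0 of 2 rose. Of B markers 1 of 2 rose, and 1 was lower at 16 h than without hCG. Defining markers too dim to be tested were Cx3cr1, Itgam, S100a9, Mpo, Cd3g, Cd2, Nkg7, Klrd1 and Cd79b. Siglech, a marker of plasmacytoid dendritic cells, stayed between 6.66 and 6.92. The summed intensity (linear units) of the 28 was 6082 and 5832 without hCG, 5420 and 5320 at 8 h, and 14475 and 13908 at 16 h. That of the 38 interferon-stimulated genes was 18012 and 17530, then 14732 and 14100, then 42216 and 31394. Between the 16 h arrays the leukocyte markers had a median difference of -0.02, the first array was the higher for 13 of the 28, and a gap of 0.5 was reached by 1 of them, so the difference between the 16 h arrays seen in the interferon-stimulated genes was not seen in these markers.

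Of 4 tested oviduct epithelium markers, 3 rose from 8 h to 16 h, where 11.8% of all tested genes did. Foxj1, Pax8 and Krt7, of 7 with a probe set, were too dim. The oviduct glycoprotein gene Ovgp1 read 7.90 and 9.58, then 7.30 and 8.46, then 11.95 and 11.52. The summed intensity of the 4 was 1308 and 1598, then 783 and 938, then 4811 and 3777. At 16 h that sum leans mostly on Ovgp1, the brightest of them. Gene by gene, the first 16 h array was the higher for 3 of the 4 (57.6% of all tested genes). Their median difference was 0.16, with a range from -0.20 to 0.43. All 9 tested oocyte markers fell from no hCG to 8 h, where 20.5% of all tested genes fell. From 8 h to 16 h, 4 of them rose and 3 fell (11.8% and 9.12% of all tested genes). Their summed intensity went from 38135 and 32857 without hCG to 7947 and 7368 at 8 h and 14330 and 12248 at 16 h. Over that later interval, 3 of 6 tested theca and stroma markers fell (Col3a1, Dcn and Acta2), where 9.12% of all tested genes did. Their median change was -0.69. Of 8 cumulus and granulosa markers, 4 fell (Fshr, Inha, Has2 and Ptx3) and Tnfaip6 rose, where 9.12% and 11.8% of all tested genes did. Their median change was -0.54. The part of leukocytes, oviduct cells, oocytes, stroma and cumulus cells in the changes of the interferon-stimulated genes was not tested.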

How the data were processed

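The deposited table held 1 log2 value per probe set and array for 6 arrays, from 3.32 to 15.5. The software, normalization and summary by which the authors made these log2 values are not given in the sources used here, and the scale was read from the values. Array medians lay between 6.14 and 6.27, so the values were used unchanged, with no column left over. Of 45101 probe sets, 64 controls were left out. The platform annotation gave 34945 of the rest 1 gene symbol, 932 several and 9160 none. Names came only from those with 1, and the gene numbers of all 42 genes are current ones.

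Probe sets with a mean under the 40th percentile (5.62) were not tested, which left 27022 probe sets and 13559 genes, each read by its brightest probe set. The limma 3.58.1 fit in R 4.3.3 used lmFit and eBayes on 3 group means (3 residual and 6.43 prior degrees of freedom), with two-sided tests adjusted by Benjamini-Hochberg. The fit was tested on simulated data. With 2 arrays per group, the number of arrays limits the precision. No probabilities are given for single members of the set.

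The members, role groups, pathway lists and marker lists were chosen with earlier results of these data known. Array values are printed for the 4 genes of each role group with the largest absolute change in any comparison and the 5 with the largest gap between the 16 h arrays, and for most of the others. Other pathway genes were named from the called ones with the largest changes, at most 8 per list and comparison. Ifnb1, Ifna1, Ifna9 and the cell type markers, which were not called or lie outside that rule, were named after their values were seen. Alternatives changed the dim filter, normalization, gene value, probe sets, arrays in the fit, variance model and replicate block, and left out each array. Promoters are RefSeq's, build GRCm38.p6.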

Additional observations from a re-analysis of the deposited data

How the results depend on the processing

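Under 15 alternatives the members rising from 8 h to 16 h numbered 21 to 30 (21 without probe sets prone to cross-hybridisation, where 29 were tested, and 25 to 30 on leaving out 1 array), and 0 fell in each. Those rising from no hCG to 16 h numbered 17 to 26, and those falling by 8 h 6 to 9. The members higher at 8 h were 1 to 2 on leaving out 1 array (1 without the first array without hCG or either 8 h array), and those lower at 16 h than without hCG were 1 without probe sets prone to cross-hybridisation. The median 8 h change was -0.013 after quantile normalization and -0.0085 after centring each array on its median, and -0.138 to -0.0508 on leaving out 1 array. On leaving out 1 array the median change was 1.20 to 1.88 from 8 h to 16 h and 0.88 to 1.44 from no hCG to 16 h. The median gap at 16 h was 0.39 to 0.52, and pathway genes outside the set that rose over the later interval numbered 24 to 42 (35 as reported). Of second-list genes, 15 without cross-hybridising probe sets rose from no hCG to 16 h, against 26. No call reversed. Leaving out 1 array lost 21 calls of single members and gained 10, and the other alternatives lost 4 and gained 14, and the causes were not tested. Differences of replicate 1 from replicate 2 were correlated at 0.468 between no hCG and 8 h. The correlation was 0.00103 between no hCG and 16 h and 0.135 between 8 h and 16 h. The numbers are therefore not shown to pair the samples across all 3 groups. With the replicate block 29 members rose from 8 h to 16 h and 26 from no hCG to 16 h. Signal over background, and so the size of changes in dim probe sets, is unknown.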
